A study of Homo sapiens with 24 samples.

Results

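The tRNA pools of 2 DUS3L knockout clones of HEK293T, an established human embryonic kidney cell line, were compared with that of wild-type HEK293T cells. Every nuclear and mitochondrial entry of the authors' deposited DUS3L tables was taken, which gave 283 isodecoders of 286 entries and 71 anticodon families of 74. Isodecoders are tRNAs that carry the same anticodon and differ elsewhere in sequence, and an anticodon family is their sum. The other 3 entries of each table are E. coli tRNAs that had been added as spike-ins and served only as controls. The labels list 9 libraries of the series' 24 for this comparison, 3 each from the lines DUS3L KO 1-5 and DUS3L KO 2-8, of genotype DUS3L KO, and 3 of wild-type genotype from the set HEK293T WT 2. All were untreated cultures grown in the same medium, and tRNA was cut from gels before a small RNA library was made.

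The deposited columns call the knockouts #1 and #2, and that naming is kept because the headers do not tie a number to a line, nor do they name the wild-type set. The allele and the method of knockout are not given in the labels, and the tables hold no mRNA in which the loss of DUS3L could be checked. Nothing in the labels shows the 3 libraries of a line to be separate cultures, and the spread behind each p-value may therefore be technical. Both clones were compared with the same wild-type libraries, so their changes share any deviation of that wild type. Each library pooled a culture, so fewer cells with a tRNA and less of it per cell cannot be told apart. A read also requires that the tRNA be ligated and copied, so a change in tRNA number and a change in how readily it is copied cannot be told apart either.

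Dihydrouridine synthases reduce uridines of tRNA to dihydrouridine, a base that is not flat and does not stack, and that makes the RNA backbone around it more flexible. Human cells have several such enzymes, each acting at its own positions. DUS1L and DUS2L act in the D loop of cytosolic tRNAs, and DUS3L acts at position 47 in the variable loop, the short stretch between the anticodon arm and the T arm. Variable loops differ between tRNAs. The usual loop has 5 bases and includes position 47, a shorter loop leaves that position out, and the class II tRNAs of leucine, serine and selenocysteine have a long arm in its place.

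Sequences of tRNA genes on the GRCh38 build (credited to RefSeq and GENCODE) were found for 23 of the 261 nuclear entries, 8.81%, so no comparison of tRNAs with and without a uridine at position 47 was made. Some of them are given below in DNA letters, 5′ to 3′, without the CCA end, with the variable loop in capitals. Gly-GCC and Glu-TTC are shown because these families rose in both clones, Gly-CCC because it rose in clone #2, and the asparagine genes because their family differed between the clones.
tRNA-Gly-GCC-2-1: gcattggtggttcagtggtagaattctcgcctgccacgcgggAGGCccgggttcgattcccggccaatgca
tRNA-Gly-CCC-2-1: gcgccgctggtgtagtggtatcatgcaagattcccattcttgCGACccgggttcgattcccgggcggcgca
tRNA-Glu-TTC-3-1: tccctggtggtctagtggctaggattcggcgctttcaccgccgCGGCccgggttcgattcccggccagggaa
tRNA-Glu-TTC-4-1: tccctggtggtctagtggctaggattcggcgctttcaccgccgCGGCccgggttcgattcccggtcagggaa
tRNA-Asn-GTT-4-1: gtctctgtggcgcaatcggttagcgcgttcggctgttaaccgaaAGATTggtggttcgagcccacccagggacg
tRNA-Asn-GTT-6-1: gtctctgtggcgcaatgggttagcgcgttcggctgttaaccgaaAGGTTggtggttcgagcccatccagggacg
The glycine and glutamate genes shown have variable loops of 4 bases, which leave out position 47. The asparagine genes shown have loops of 5 bases with a T, which is a U in the tRNA, at position 47. Among sequences not shown, His-GTG-1-1 and Gln-TTG-2-1 also have loops of 4 bases, and their families passed in neither clone. Thr-AGT-1-3, of a family that fell in clone #1, has a T at position 47. So do Arg-ACG-2-1 and Trp-CCA-1-1, whose families passed in neither clone. Gly-GCC-2-1 lies at chr1:161523847-161523917 on the minus strand, overlapping an exon of FCGR2A, and the Gly-CCC-2-1 sequence at chr16:636736-636806 on the minus strand, which is 1 of the copies of that isodecoder. Identical copies also lie at chr16:70779039-70779109 for Gly-GCC-2-1 and at chr1:161422093-161422164 for Glu-TTC-4-1, and reads cannot be tied to a single copy. Glu-TTC-3-1 lies at chr1:16872583-16872654 on the plus strand, overlapping an exon of BX284668.2, and Glu-TTC-4-1 at chr1:16535279-16535350 on the minus strand, overlapping an exon of LINC01783. The genes of Asn-GTT-4-1 and Asn-GTT-6-1 lie at chr1:16889677-16889750 on the plus strand (an intron of CROCC) and chr1:143735920-143735993 on the minus strand (no GENCODE gene). Genes given further on with coordinates overlap no GENCODE gene unless one is named. The most abundant members of the glycine and glutamate families are other genes, whose sequences were not used here.

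The deposited tables hold means and fold changes and no value per library. Levels in wild type and in each clone were therefore recovered from the authors' mean of normalised reads and both fold changes, and the SE of a fold change from its p-value. The recovered total was 509952 normalised reads in wild type, 968304 in clone #1 and 974286 in clone #2. The nuclear part was 472232, 921836 and 932473, and the mitochondrial part 32621, 40827 and 35897. The 3 spike-ins summed to 5099, 5641 and 5916 normalised reads, and their mean log2 fold change was 0.16 in clone #1 and 0.17 in clone #2. The median nuclear family stood at a log2 change of -0.19 in clone #1 and 0.28 in clone #2 on the authors' scale, so that a change of a clone is also given against that median where the call depends on it.

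The wild type of these tables differed from that of the tables of the other knockouts in the series. The headers do not name either set, and the tables were scaled on their own, so only shares of the nuclear level can be set side by side. Gly-GCC was 55.6% of the nuclear level in the wild type used here and 9.17% in the wild type of the DUS1L table. Glu-TTC was 6.13% here and 12.2% there, and Asn-GTT 0.404% and 1.86%. The large share of Gly-GCC here lowers every other share. Outside Gly-GCC, Glu-TTC was 13.8% of the nuclear level here, so its smaller share here does not show a lower level. Some isodecoders stood further apart. Thr-CGT-3-1 was 0.246% of the nuclear level here and 0.00395% there, Ile-AAT-3-1 0.345% and 0.0295%, Val-AAC-1-1 0.000721% and 0.00972%, and Asn-GTT-9-2 0.0067% and 0.0845%. For Gly-GCC the gap between the wild types was wider than the gap of either DUS3L clone from its own wild type. The part of this difference in the changes below was not tested.

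Glycine and glutamate tRNAs carried the rise of the nuclear total. The Gly-GCC family, which reads the GGC and GGU codons of glycine, was at 262558 normalised reads in wild type, 681217 in clone #1 and 631966 in clone #2. It made up 55.6% of the nuclear level in wild type, 73.9% in clone #1 and 67.8% in clone #2. Of the rise in the nuclear level, 93.1% in clone #1 and 80.3% in clone #2 was Gly-GCC. Without Gly-GCC and Glu-TTC the nuclear level was 180710 in wild type, 164443 in clone #1 and 225370 in clone #2, a log2 change of -0.14 and 0.32. The remaining 47 nuclear families together were thus lower than wild type in one clone and higher in the other, and this sum was not tested.

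**Figure D1:**
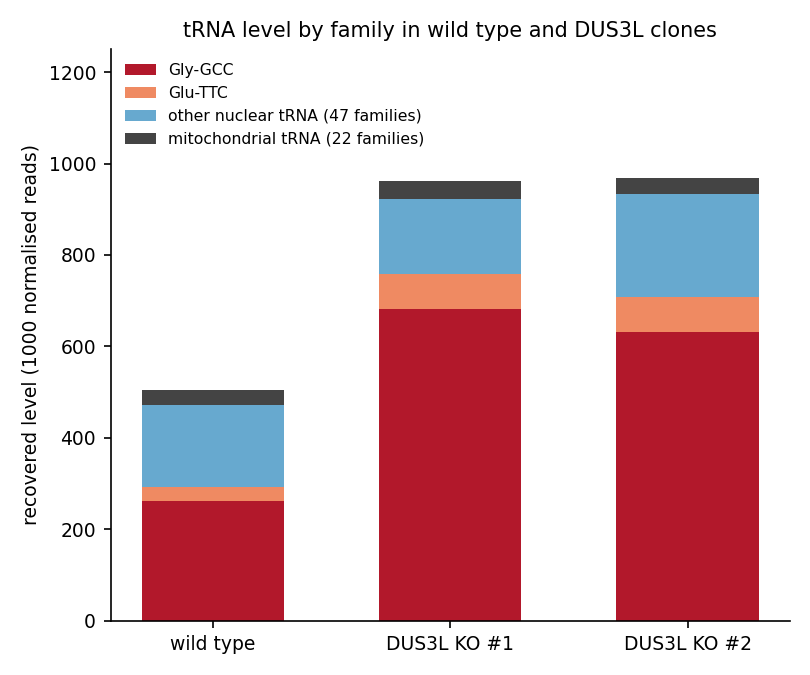
Recovered tRNA level (in units of 1000 normalised reads, vertical axis) in wild type and the 2 DUS3L knockout clones, stacked by family. The nuclear part rises from 472232 in wild type to 921836 and 932473 normalised reads, and Gly-GCC takes 93.1% and 80.3% of that rise. Spike-ins are not drawn. Values are recovered from the authors' means and fold changes and carry no error bar.

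Among anticodon families, 2 rose and 4 fell in clone #1 at an adjusted p under 0.05, which was 2.7% and 5.41% of the 74 tested (8.11% in all). In clone #2, 4 families rose, 5.41% of the 74 tested and 8.16% of the 49 nuclear ones, and 0 fell, where 8 families in all had an unadjusted p under 0.05 by the authors' test (15 in clone #1). The p-values are the authors', from DESeq2 per the submitters' notes, adjusted here by the Benjamini-Hochberg method over the table. Gly-GCC and Glu-TTC passed in both comparisons, 2.7% of families, and 0 families passed as lower in both or in opposite directions.

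Gly-GCC rose in the authors' deposited table by 1.38 ± 0.33 (log2 fold change ± recovered SE) in clone #1 (adjusted p = 0.00119) and by 1.27 ± 0.33 in clone #2 (adjusted p = 0.00236). Set against the median nuclear family, the change in clone #2 was 0.99 and did not pass (adjusted p = 0.0520), while that in clone #1 did. Glu-TTC, which decodes the GAA codon of glutamate, was at 28964 normalised reads in wild type, 76176 in clone #1 and 75136 in clone #2. By the authors' deposited table it rose by 1.40 ± 0.29 in clone #1 (adjusted p = 0.000158) and 1.38 ± 0.29 in clone #2 (adjusted p = 0.000219). Its level was more than doubled in each clone, and the clones differed by -0.02, with a 95% interval of the log2 difference from -0.60 to 0.56. For Gly-GCC that interval ran from -0.76 to 0.54 around -0.11. As a share of the nuclear level outside Gly-GCC, Glu-TTC went from 13.8% in wild type to 31.7% in clone #1 and 25.0% in clone #2.

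The rise of both families lay in their abundant members. Gly-GCC-1-2 held 98.6% of the family in wild type and went from 258753 normalised reads to 672524 in clone #1 and 622849 in clone #2. Its gene lies at chr1:161450677-161450747 in an intron of AL592295.3. Gly-GCC-4-1, at chr1:161480566-161480636, went from 2914 to 8060 and 8112. These were log2 changes in the authors' deposited table of 1.38 ± 0.36 and 1.27 ± 0.36 for Gly-GCC-1-2, and 1.47 ± 0.38 and 1.48 ± 0.38 for Gly-GCC-4-1 (adjusted p from 0.00144 to 0.00446). The other Gly-GCC members did not pass, among them Gly-GCC-2-1, printed above, with 776 normalised reads in wild type, 494 in clone #1 and 873 in clone #2. Glu-TTC-2-2, on chromosome 15 at 26082234-26082305, went from 20356 to 56200 and 52014, and Glu-TTC-1-1, on chromosome 2 at 130337128-130337199, from 8326 to 19646 and 22718. The authors' deposited table gives log2 changes of 1.47 ± 0.32 and 1.35 ± 0.32 for Glu-TTC-2-2 and of 1.24 ± 0.33 and 1.45 ± 0.33 for Glu-TTC-1-1 (adjusted p from 0.000197 to 0.00403). Glu-TTC-3-1, printed above and much rarer, went from 45.8 to 102 and 98.9 and did not pass (adjusted p = 0.0543 and 0.0629). Members of a family are near-identical and reads may have been split among them by the authors' counting, so a member's value is less certain than its family's.

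Other families passed in a single clone. In clone #1 the families that fell were Val-TAC, Thr-AGT, Lys-TTT and Ile-AAT, which decode valine, threonine, lysine and isoleucine codons. Val-TAC went from 1041 normalised reads in wild type to 390 in clone #1 and 873 in clone #2. Thr-AGT went from 229 to 95.6 and 163, Lys-TTT from 5058 to 2363 and 6877, and Ile-AAT from 2770 to 1298 and 3874. By the authors' deposited table the log2 changes in clone #1 were -1.42 ± 0.40 for Val-TAC, -1.26 ± 0.35 for Thr-AGT, -1.10 ± 0.35 for Lys-TTT and -1.09 ± 0.30 for Ile-AAT (adjusted p = 0.00632, 0.00559, 0.0239 and 0.00559). The same table gives -0.25, -0.49, 0.44 and 0.48 in clone #2, none of which passed. Lys-TTT did not pass when set against the median nuclear family (-0.91, adjusted p = 0.0847).

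In clone #2 the families that rose besides Gly-GCC and Glu-TTC were Gly-CCC, which reads the GGG codon of glycine, and Asn-GTT, the asparagine family. Gly-CCC went from 7679 normalised reads in wild type to 11995 in clone #1 and 22871 in clone #2, and Asn-GTT from 1908 to 1798 and 5562. Gly-CCC in the authors' deposited table changed by 1.57 ± 0.37 in clone #2 (adjusted p = 0.000765) and stood at 0.64 ± 0.37 in clone #1 (adjusted p = 0.319). Asn-GTT changed by 1.54 ± 0.39 in clone #2 of the authors' deposited table (adjusted p = 0.00189) and stood at -0.09 ± 0.39 in clone #1. The rise of Gly-CCC was a rise of Gly-CCC-1-2, in an intron of CROCC at chr1:16861921-16861991, from 2616 to 18336 normalised reads in clone #2. The family without it was at 5062 in wild type, 5738 in clone #1 and 4536 in clone #2.

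**Figure D2:**
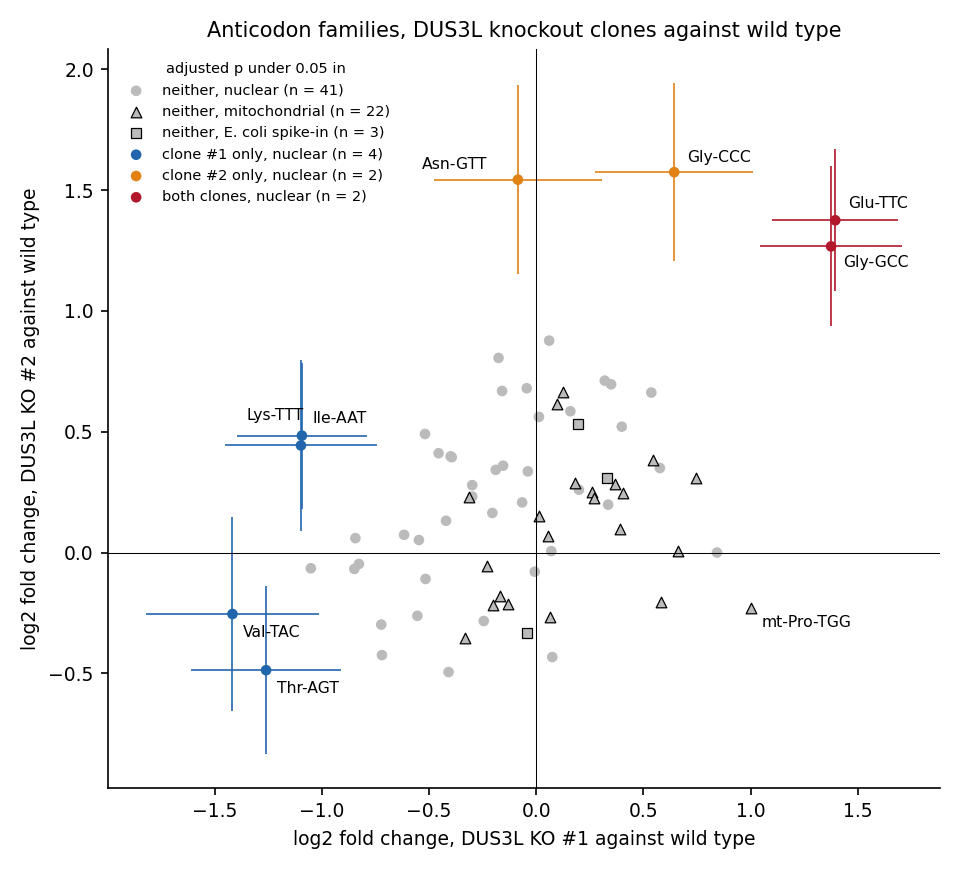
Log2 fold change of each anticodon family in DUS3L KO #1 (horizontal axis) and KO #2 (vertical axis) against wild type, from the authors' deposited table, with recovered SEs as bars on families past the threshold. Gly-GCC and Glu-TTC lie at 1.27 to 1.40 on both axes, while 4 families fell in clone #1 and 2 more rose in clone #2. The 22 mitochondrial families (triangles) and the 3 spike-ins (squares) did not pass in either clone.

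A direct comparison of the clones used the difference of their fold changes with the shared wild-type part of the variance removed. It called 4 of 74 families, 5.41%, of which 3 (4.05%) were higher and 1 (1.35%) lower in clone #2. Ile-AAT was higher in clone #2 than in clone #1 by 1.58 on the log2 scale (adjusted p = 1.35e-05), Asn-GTT by 1.63 (adjusted p = 0.000735) and Lys-TTT by 1.54 (adjusted p = 0.000501). The mitochondrial family mt-Pro-TGG was lower in clone #2 by 1.23 (log2 difference -1.23, adjusted p = 0.0284). With the SEs of both clones summed in squares, which counts the wild type in each, Ile-AAT alone passed. For Val-TAC, Thr-AGT and Gly-CCC, each past the threshold in a single clone, the difference between the clones was 1.16, 0.77 and 0.93 and did not pass (adjusted p = 0.0575, 0.146 and 0.109).

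Families named for their role rather than their change showed no called difference. The initiator iMet-CAT, which starts protein synthesis, was at 687 normalised reads in wild type, 513 in clone #1 and 752 in clone #2. Tyr-GTA, the tyrosine family whose genes contain introns, was at 437, 459 and 439. SeC-TCA, which inserts selenocysteine at recoded UGA codons, was at 633, 568 and 812. Their log2 changes in clones #1 and #2 of the authors' deposited table were -0.42 and 0.13 for iMet-CAT, 0.07 and 0.01 for Tyr-GTA and -0.16 and 0.36 for SeC-TCA, with SEs of 0.29 to 0.34. Among the other abundant families, Arg-ACG went from 33766 to 35552 and 25016, Gln-CTG from 13076 to 6305 and 12498, Lys-CTT from 12279 to 6815 and 11715 and Arg-CCT from 12093 to 9165 and 15936. None of these 4 passed in either clone, the smallest adjusted p being 0.17 for Gln-CTG and Lys-CTT in clone #1.

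The share of isodecoders called was near that of families in clone #1 (7.8% and 8.11%) and larger in clone #2 (11.7% and 5.41%). Of 282 tested, 7 (2.48%) were higher and 15 (5.32%) lower in clone #1, 7.8% in all, and 30 (10.6%) were higher and 3 (1.06%) lower in clone #2. Set against the median nuclear isodecoder, clone #1 had 12 higher and 10 lower, so the balance of directions in that clone depends on the scaling. In both comparisons 7 isodecoders (2.48%) passed as higher and 3 (1.06%) as lower, and 0 passed in opposite directions. Of the 30 isodecoders higher in clone #2, 10 were recovered at under 10 normalised reads in wild type, so their fold changes rest on few reads.

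**Figure D3:**
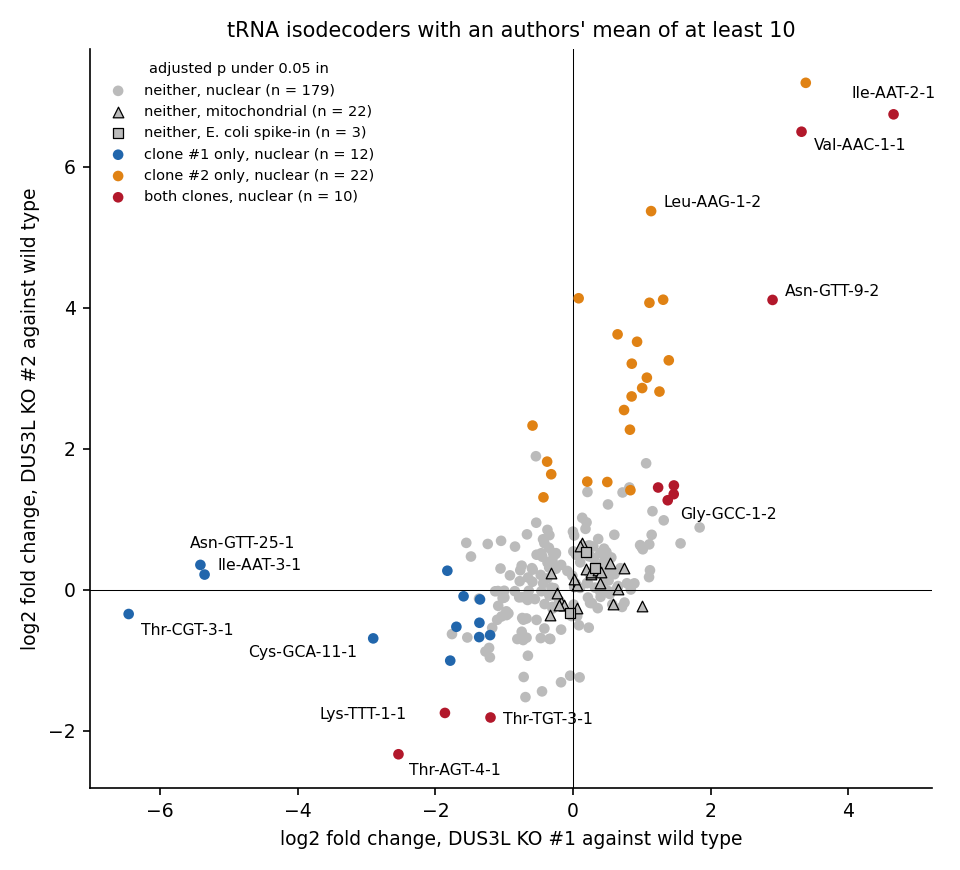
Log2 fold change of each isodecoder with an authors' mean of at least 10 in DUS3L KO #1 (horizontal axis) and KO #2 (vertical axis) against wild type, from the authors' deposited table. The 10 isodecoders past the threshold in both clones lie on the same side of 0 in both, from -2.54 to 6.74, with Val-AAC-1-1 at 3.32 in clone #1 and 6.50 in clone #2, whereas 3 isodecoders lie below -5 in clone #1 and near 0 in clone #2.

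Besides the glycine and glutamate members described above, Ile-AAT-2-1, Val-AAC-1-1 and Asn-GTT-9-2 were higher in both clones. Ile-AAT-2-1, an isoleucine tRNA gene at chr6:27688188-27688261, was at 8.79 normalised reads in wild type, 222 in clone #1 and 941 in clone #2. Val-AAC-1-1, a valine tRNA gene on chromosome 3 at 169772230-169772302, went from 3.41 to 34.1 and 307. Asn-GTT-9-2, at chr1:148048516-148048589, went from 31.7 to 237 and 546. All 3 were rare in the wild type used here, and in each of them clone #2 had the higher level. Val-AAC-1-1 held 0.00972% of the nuclear level in the wild type of the DUS1L table. Here it held 0.000721% in wild type, 0.0037% in clone #1 and 0.033% in clone #2. Asn-GTT-9-2 held 0.0845% there, against 0.0067%, 0.0257% and 0.0586% here in the same order. Ile-AAT-2-1 held 0.000439% there, against 0.00186%, 0.0241% and 0.101% here. Gly-GCC was 73.9% of the nuclear level in clone #1, 67.8% in clone #2 and 9.17% in that other wild type. A larger Gly-GCC share lowers every other share. The authors' deposited table gives log2 changes in clones #1 and #2 of 4.66 ± 1.12 and 6.74 ± 1.12 for Ile-AAT-2-1, 3.32 ± 0.83 and 6.50 ± 0.82 for Val-AAC-1-1 and 2.90 ± 0.57 and 4.11 ± 0.57 for Asn-GTT-9-2 (adjusted p from 2.55e-13 to 0.002). The clones differed for Val-AAC-1-1 by 3.17 (adjusted p = 0.000186), and for the other two the difference did not pass (adjusted p = 0.215 and 0.155). Asn-GTT-9-2 has the close copy Asn-GTT-9-1, which was at 187, 79.1 and 292, and the pair summed to 218, 316 and 839 normalised reads.

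The isodecoders lower in both clones were the threonine tRNAs Thr-AGT-4-1 and Thr-TGT-3-1 and the lysine tRNA Lys-TTT-1-1. Thr-TGT-3-1, at chr14:20613790-20613862, was the most abundant of them at 811 normalised reads in wild type, 354 in clone #1 and 231 in clone #2. Thr-AGT-4-1, at chr6:27726694-27726767, went from 53.6 to 9.23 and 10.6, and Lys-TTT-1-1, in an intron of ZFHX3 and LINC01568 on chromosome 16 at 73478317-73478389, from 69.6 to 19.1 and 20.7. In the authors' deposited table the changes were -1.20 ± 0.40 and -1.81 ± 0.40 for Thr-TGT-3-1, -2.54 ± 0.63 and -2.34 ± 0.65 for Thr-AGT-4-1 and -1.86 ± 0.57 and -1.75 ± 0.58 for Lys-TTT-1-1 (adjusted p from 0.000131 to 0.0394). Set against the median nuclear isodecoder, the change of Thr-TGT-3-1 in clone #1 did not pass (-1.03, adjusted p = 0.0942). Thr-TGT-3-1 went from 42.0% of its family in wild type to 24.3% in clone #1 and 16.8% in clone #2.

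Of the 15 isodecoders lower in clone #1 (5.32% of the 282 tested), 12 did not pass in clone #2. Among those 12, 3 were nearly lost in clone #1. Thr-CGT-3-1, a threonine tRNA gene at chr6:28648207-28648280, went from 1162 normalised reads in wild type to 13.2 in clone #1 and stood at 914 in clone #2. Ile-AAT-3-1, at chr6:27275211-27275284, went from 1631 to 39.8 and stood at 1890 in clone #2. Asn-GTT-25-1, at chr1:149558419-149558493, went from 302 to 7.08 and stood at 385 in clone #2. Each was thus near the wild-type level in clone #2 and at a few percent of it or less in clone #1. The authors' deposited table gives clone #1 changes of -6.46 ± 0.50 (adjusted p = 1.81e-35), -5.35 ± 0.34 (adjusted p = 3.61e-54) and -5.42 ± 0.49 (adjusted p = 4.93e-26) in that order, and clone #2 changes of -0.35, 0.21 and 0.35. Between the clones they differed by 6.11, 5.57 and 5.77 on the log2 scale (adjusted p = 2.92e-31, 4.35e-58 and 1.32e-28).

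Their families changed by less than these members did. Ile-AAT-3-1 was 58.9% of the Ile-AAT family in wild type, 3.07% in clone #1 and 48.8% in clone #2. Without it the Ile-AAT family was at 1139 normalised reads in wild type, 1258 in clone #1 and 1984 in clone #2, so that the fall of the family in clone #1 was the fall of this member. Thr-CGT-3-1 was 39.4% of its family in wild type and 0.687% in clone #1, and the other members summed to 1789, 1909 and 2190. Asn-GTT-25-1 was 15.9% of its family in wild type and 0.396% in clone #1.

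**Figure D4:**
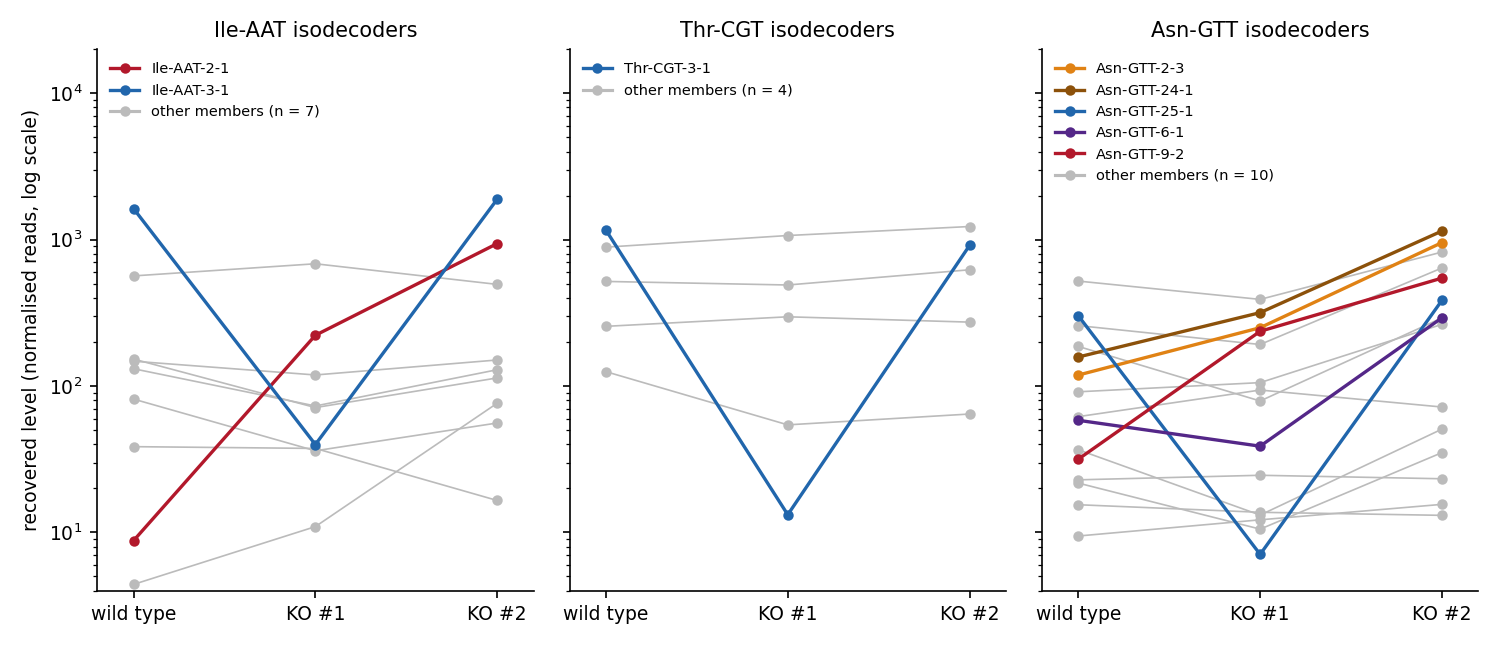
Recovered level (normalised reads, log scale) of the members of the Ile-AAT, Thr-CGT and Asn-GTT families with an authors' mean of at least 10, in wild type and the 2 clones, lines joining the values of a member. Ile-AAT-3-1, Thr-CGT-3-1 and Asn-GTT-25-1 (blue) are at 39.8, 13.2 and 7.08 in clone #1 and near wild type in clone #2, while Ile-AAT-2-1 and Asn-GTT-9-2 (red) are higher in both. The clones are separate lines, and the joining lines show no order in time.

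The other isodecoders named for clone #1 fell less far. Cys-GCA-11-1, a cysteine tRNA gene on chromosome 7, went from 57.3 normalised reads in wild type to 7.66 in clone #1 and 35.4 in clone #2. Ala-AGC-4-1, an alanine tRNA gene on chromosome 6, went from 1068 to 355 and stood at 999.6 in clone #2. Val-TAC-3-1, on chromosome 10, was 65.2% of the Val-TAC family in wild type and went from 679 to 210 and 471. Clone #1 changes in the authors' deposited table were -2.90 ± 0.61, -1.59 ± 0.44 and -1.69 ± 0.47 (adjusted p = 0.00011, 0.00625 and 0.007). Val-TAC-1-1 (184, 52.0 and 222), Lys-TTT-3-3 (4531, 1766 and 3270), Lys-CTT-2-1 (3848, 1508 and 3492), Thr-AGT-3-1 (163, 70.8 and 104) and Tyr-GTA-4-1 (130, 50.6 and 81.5) also fell in clone #1, given as normalised reads in wild type and clones #1 and #2. For Lys-CTT-2-1, Thr-AGT-3-1 and Tyr-GTA-4-1 the call was lost when set against the median nuclear isodecoder (adjusted p = 0.0942, 0.105 and 0.0582).

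Of the 30 isodecoders higher in clone #2 (10.6% of the 282 tested), 23 did not pass in clone #1. Not passing does not show that they were unchanged in clone #1. Leu-AAG-1-2, a leucine tRNA gene on chromosome 5 at 181101840-181101921, went from 4.19 normalised reads in wild type and 9.22 in clone #1 to 173 in clone #2. Lys-TTT-7-1, at chr6:28747744-28747816, went from 168 and 363 to 2817, and Val-CAC-14-1 from 69.0 and 125 to 461. By the authors' deposited table the clone #2 changes were 5.37 ± 0.61 for Leu-AAG-1-2, 4.07 ± 0.50 for Lys-TTT-7-1 and 2.74 ± 0.43 for Val-CAC-14-1 (adjusted p = 5.65e-16, 3.37e-14 and 6.97e-09). Lys-TTT-7-1 was 3.32% of the Lys-TTT family in wild type, 15.4% in clone #1 and 41.0% in clone #2. Without it the family was at 4891 in wild type, 1999 in clone #1 and 4060 in clone #2.

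Asparagine tRNAs made up the largest group of the rises in clone #2, with Asn-GTT-9-2 counted, which also passed in clone #1. Reads may have been split among these near-identical members, so their calls are not independent. Of the 15 Asn-GTT isodecoders with a mean of at least 10, 6 rose in clone #2 and 0 fell, against 1 higher and 1 lower in clone #1. In clone #2 that was 40% of them, beside 11.8% higher among all 245 isodecoders with such a mean. In clone #1 it was 6.67% in each direction, beside 2.86% higher and 6.12% lower among all 245. Asn-GTT-24-1, in an intron of SEC22B4P, went from 158 normalised reads in wild type to 317 in clone #1 and 1146 in clone #2. Asn-GTT-2-3, on chromosome 10, went from 119 to 250 and 955, and Asn-GTT-6-1, whose sequence is printed above, from 58.3 to 38.8 and 293. The authors' deposited table gives clone #2 changes of 2.86 ± 0.51, 3.01 ± 0.50 and 2.33 ± 0.39 for these members (adjusted p = 5.13e-07, 9.7e-08 and 1.1e-07). The most abundant member in wild type, Asn-GTT-3-1, was at 521, 391 and 823 and did not pass in either clone. Asn-GTT-6-1 differed between the clones by 2.91, Lys-TTT-7-1 by 2.96 and Leu-AAG-1-2 by 4.23 on the log2 scale (adjusted p = 1.47e-11, 9.98e-08 and 8.51e-14).

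Over all isodecoders the clones differed in 33 of 282, 11.7%, with 32 (11.3%) higher in clone #2 and 1 (0.355%) lower. These counts are on the authors' scale, where the median nuclear isodecoder stood at -0.17 in clone #1 and 0.21 in clone #2. That offset favours higher calls in clone #2, so the balance of directions may depend on the scaling. The number of isodecoders that differed fell to 7 when the SEs of both clones were summed in squares. Clone #2 also held the rare initiator copy iMet-CAT-2-1 at 24.5 normalised reads against 2.57 in wild type, a change of 3.25 ± 1.03 in the authors' deposited table (adjusted p = 0.0166), while the main copy iMet-CAT-1-8 was at 684, 506 and 728.

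By amino acid, calls were spread over many isotypes. Of the 283 isodecoders 245 had an authors' mean of at least 10, and over these the median log2 change was -0.02 in clone #1 and 0.20 in clone #2. Of the 245, 7 (2.86%) were higher and 15 (6.12%) lower in clone #1, and 29 (11.8%) were higher and 3 (1.22%) lower in clone #2. The 7 glutamate isodecoders of the authors' deposited table had medians of 0.75 and 0.61, with 2 higher in each clone, and the 12 glycine isodecoders medians of 0.43 and 0.42, with 2 higher in clone #1 and 3 in clone #2. Asparagine (15 isodecoders) had medians of -0.17 and 0.69, and valine (15) of -0.20 and 0.54 with 1 rise and 2 falls in clone #1 and 2 rises in clone #2. Threonine (13) had medians of -0.08 and 0.10, with 4 falls in clone #1 and 2 rises and 2 falls in clone #2. Lysine (15) had medians of -0.38 and -0.02, with 3 falls in clone #1 and 2 rises and 1 fall in clone #2. Isoleucine (13) had medians of -0.28 and -0.02, with 1 rise and 1 fall in clone #1 and 2 rises in clone #2. The largest number of calls in a single direction was thus the 6 of asparagine in clone #2.

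The remaining isotypes held at most 2 calls per clone. Alanine (24 isodecoders) had 2 lower in clone #1, cysteine (13) 1 lower in clone #1 and 2 higher in clone #2, and tyrosine (5) 1 lower in clone #1 and 1 higher in clone #2. Leucine (19) had 2 higher in clone #2, and arginine (20), phenylalanine (4), proline (7) and serine (15) had 1 each. Aspartate, glutamine, elongator methionine and tryptophan had 0 in either clone. Over these 12 isotypes the medians in the authors' deposited table ran from -0.76 for glutamine to 0.81 for phenylalanine in clone #1 and from -0.23 for cysteine to 0.62 for aspartate in clone #2. The class II tRNAs, which have a long variable arm, had 0 calls in clone #1 and 3 higher in clone #2 among 35 isodecoders (8.57%, beside 11.8% over all 245), with medians of -0.17 and 0.40.

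Grouped by the base that opens the anticodon, the wobble base, the share of rises in clone #2 was 25.5% for G, 11.9% for A, 11.1% for T and 5.97% for C, beside 11.8% over all 245. Of 51 isodecoders with G, 3 rose and 3 fell in clone #1 and 13 rose in clone #2, with medians of 0.08 and 0.35 in the authors' deposited table. For A (42) the counts were 2 rises and 4 falls in clone #1 and 5 rises and 1 fall in clone #2, with medians of -0.17 and -0.08. For C (67) they were 2 falls in clone #1 and 4 rises in clone #2, with medians of -0.25 and 0.09, and for T (63) 2 rises and 6 falls in clone #1 and 7 rises and 2 falls in clone #2, with medians of 0.02 and 0.27. The asparagine isodecoders, 6 of the 13 higher with G, belong to that group. Falls in clone #1 were 9.52% for A and for T, 5.88% for G and 2.99% for C, beside 6.12% over all 245. Rises there were 5.88% for G, 4.76% for A, 3.17% for T and 0% for C, beside 2.86%.

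Mitochondrial tRNAs are transcribed from the mitochondrial genome as parts of long heavy-strand and light-strand transcripts and cut out of them. None of the 22 passed in either clone, against 8.56% of the 257 nuclear isodecoders tested in clone #1 and 12.8% in clone #2. Their log2 changes in the authors' deposited table ran from -0.33 to 1.00 in clone #1 and from -0.35 to 0.67 in clone #2, with medians of 0.15 and 0.12. The 8 light-strand tRNAs had medians of 0.33 and 0.17 and the 14 heavy-strand tRNAs 0.06 and 0.11. The highest in clone #1 was mt-Pro-TGG, the light-strand proline tRNA encoded by MT-TP, at 4077 normalised reads in wild type, 8168 in clone #1 and 3480 in clone #2. It did not pass in clone #1 (1.00 ± 0.39 by the authors' deposited table, adjusted p = 0.105), except when set against the median nuclear family (1.19, adjusted p = 0.0336). It is shown here, read from the minus strand at chrMT:15956-16023 with the anticodon in capitals, because it was the mitochondrial family that differed between the clones.
mt-Pro-TGG: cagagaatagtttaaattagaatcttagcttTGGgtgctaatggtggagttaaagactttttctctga

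Changes in the DUS3L clones were also set beside those in the DUS1L and DUS2L knockouts, which lack synthases acting at other positions and whose tables rest on the wild type with the other shares given above. The tables were scaled separately, so only fold changes within a table were compared, as the mean of 2 clones for each knockout. The SE of such a mean holds the spread of libraries and leaves out the spread between the 2 clones. The p-values between knockouts therefore do not measure how lines of a knockout vary. Against DUS1L, 0 of 70 families differed, 0%, where 11 had an unadjusted p under 0.05 and the smallest adjusted p was 0.0677, for Glu-TTC. The change of Glu-TTC was higher in DUS3L by 1.67 on the log2 scale and that of Gly-GCC also by 1.67, neither past the threshold (adjusted p = 0.0677 and 0.0937). Against DUS2L, 20 of 71 families differed, 28.2%, with 16 (22.5%) higher and 4 (5.63%) lower in DUS3L. That balance depends on the scaling, since with every clone centred on its median nuclear family 4 were higher and 13 lower in DUS3L. The spike-in E. coli Tyr-GTA was among the 20 without centring (log2 difference 1.77), which leaves 19 human families, 4 of them mitochondrial.

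The change of Glu-TTC was higher in DUS3L than in DUS2L by 1.72 ± 0.49 (adjusted p = 0.00361). With every clone centred on its median nuclear family the difference was 0.90 and did not pass (adjusted p = 0.156), so this call depends on the scaling. Gly-GCC did not differ by the test, at -0.06 ± 0.56, and in the authors' deposited table its DUS2L changes were 0.95 in clone #1 and 1.81 in clone #2, the latter past the threshold (adjusted p = 0.00535). The change of Asn-GTT was higher in DUS3L by 2.83 (adjusted p = 2.55e-07) and by 2.01 with centring. Its changes in the authors' deposited table were -2.34 and -1.86 in the DUS2L clones against -0.09 and 1.54 in the DUS3L clones. In the DUS1L clones of the authors' deposited table Asn-GTT changed by 1.61 (adjusted p = 0.0069) and -0.22, so it passed in a single clone there too. By the test between knockouts its change in DUS3L differed from that in DUS1L by 0.03 (adjusted p = 0.969).

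Over isodecoders, 28 of 271 differed from DUS1L, 10.3%, with 15 (5.54%) higher and 13 (4.8%) lower in DUS3L. From DUS2L 118 of 273 differed, 43.2%, with 72 (26.4%) higher and 46 (16.8%) lower, and with centring 39 were higher and 64 lower. The differences below are between changes from each table's own wild type, not between levels. Their p-values also leave out the spread between clones of a knockout. The change of Ile-AAT-2-1 was higher in DUS3L than in DUS1L by 6.10 and than in DUS2L by 7.53 on the log2 scale (adjusted p = 0.000372 and 4.51e-07). In the DUS1L table it was at 4.95 normalised reads in wild type, 12.4 in clone #1 and 1.13 in clone #2, and in the DUS2L table at 11.4, 4.38 and 2.35. The change of Val-AAC-1-1 was higher in DUS3L by 3.63 and 6.93 (adjusted p = 0.0017 and 1.44e-12), and Asn-GTT-9-2 by 2.39 and 7.04 (adjusted p = 0.021 and 9.12e-21). Asn-GTT-9-2 was compared without its close copy Asn-GTT-9-1, with which it may share reads. The pair summed changed by a log2 of 0.53 in DUS3L clone #1 and 1.94 in clone #2, and this sum was not tested. Glu-TTC-2-2 changed more by 1.69 and 1.70 (adjusted p = 0.0229 and 0.0021) and Glu-TTC-1-1 by 1.70 and 1.74 (adjusted p = 0.0276 and 0.00764). With centring the isoleucine, valine and asparagine members passed against both knockouts (log2 differences from 2.38 to 6.77), while against DUS2L the glutamate members did not (0.95 for Glu-TTC-2-2 and 0.99 for Glu-TTC-1-1, adjusted p = 0.117 and 0.173). Of the nuclear level Glu-TTC-2-2 made up 6.10% and 5.58% in the DUS3L clones and 11.4% and 8.54% in the DUS1L clones. Asn-GTT-9-2 made up 0.0257% and 0.0586% against 0.432% and 0.121%. Gly-GCC was 73.9% and 67.8% of the nuclear level in the DUS3L clones and 10.5% and 7.68% in the DUS1L clones. A larger Gly-GCC share lowers every other share, so these shares do not rank either tRNA between the knockouts.

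Of the tRNAs lower in both DUS3L clones, Lys-TTT-1-1 was tested against both knockouts and Thr-AGT-4-1 against DUS2L only. None of these differences passed. Lys-TTT-1-1 differed from DUS1L by -0.02 and from DUS2L by -0.08 (adjusted p = 0.997 and 0.936). In the authors' deposited table it changed by -1.66 and -1.79 in the DUS2L clones, both past the threshold (adjusted p = 0.0157 and 0.0092), and by -0.91 and -2.67 in the DUS1L clones. Thr-AGT-4-1 changed by -3.20 and -2.61 in the DUS2L clones of the authors' deposited table (adjusted p = 0.000299 and 0.00327), and its difference from DUS3L was 0.47 (adjusted p = 0.708). In the DUS1L table Thr-AGT-4-1 stands at -2.66 and -2.89 with no p-value. Thr-TGT-3-1 has no p-value in the DUS1L or the DUS2L table, where the authors' deposited values were -1.20 and -1.05, and -1.97 and -1.25.

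**Figure D5:**
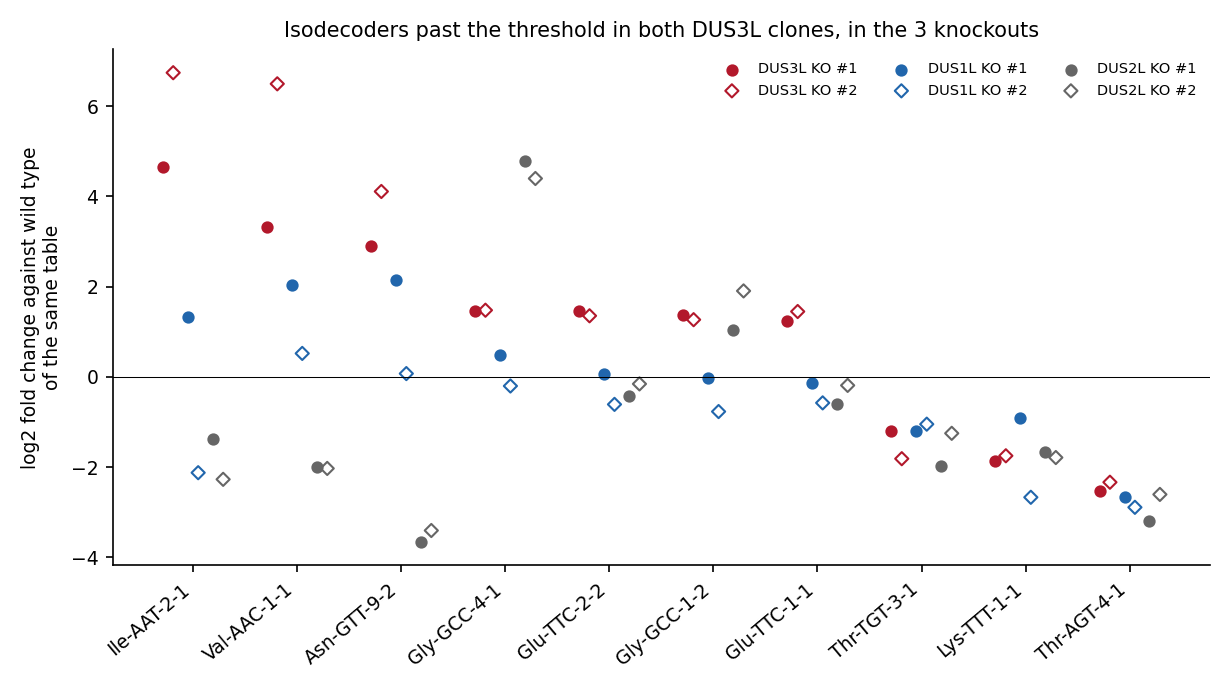
Log2 fold change against the wild type of the same table (vertical axis) for the 10 isodecoders past the threshold in both DUS3L clones, in 2 clones each of the DUS3L, DUS1L and DUS2L knockouts, from the authors' deposited tables. Ile-AAT-2-1 lies at 4.66 and 6.74 in DUS3L and at or below 1.32 in the other knockouts, whereas the 3 isodecoders on the right are below 0 in all 6 clones.

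The 3 isodecoders nearly lost in clone #1 of DUS3L did not fall as far in the other knockouts. Thr-CGT-3-1 in the authors' deposited tables changed by 1.16 and 0.62 in the DUS1L clones and by 5.08 and 6.35 in the DUS2L clones. Ile-AAT-3-1 changed by 1.77 and 1.5 in the DUS1L clones and by 2.85 and 4.40 in the DUS2L clones of the authors' deposited tables. Asn-GTT-25-1 stood at 1.78 and 1.53 in the DUS1L clones and at -1.18 and 0.49 in the DUS2L clones of the same tables. None of the 3 was below -2 in any of these 4 clones. As a share of the nuclear level Thr-CGT-3-1 was at 0.00143% in DUS3L clone #1 and 0.00395% in the other wild type. In that clone Ile-AAT-3-1 was at 0.00432% and Asn-GTT-25-1 at 0.000768%, below 0.0295% and 0.0656% in the other wild type. Gly-GCC was 73.9% of the nuclear level in that clone and 9.17% in the other wild type, which lowers the clone's other shares. Whether Thr-CGT-3-1 was below the other wild type can therefore not be read from its shares.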

How the data were processed

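The authors' deposited DUS3L tables give, per the file headers, each tRNA's mean normalised count over libraries (a signal scaled by the authors), with a log2 fold change and an unadjusted p-value for either clone against wild type. Tools named in the submitters' processing notes, without versions, are DESeq2, featureCounts, STAR and fastp, on hg38. Trimming settings, how a read matching more than 1 tRNA gene was counted and the scaling are not given in the sources used here. Depth per library is unknown, and intervals come from the recovered SEs only.

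The deposited p-values received a Benjamini-Hochberg adjustment over each table (threshold 0.05). SEs were recovered by dividing a fold change by the normal score that its p-value stands for, and levels by assuming 3 groups of 3 libraries. As a check, a dispersion taken from clone #1 was used to predict SEs in clone #2, and the median log2 error over 69 families with a mean of at least 100 was -0.00116. Differences were tested with a two-sided normal p. The steps were tested on simulated data. Software was scipy 1.17.1, numpy 2.4.6, matplotlib 3.10.9 and pandas 2.3.3 on Python 3.11.15.

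Named tRNAs are iMet-CAT, Tyr-GTA, SeC-TCA, the 6 families highest in wild type, those past the threshold in both clones, up to 6 per clone or between clones, and the 2 most abundant members of each, given where they add to the result. Others named were chosen after their values were seen. The members and the lists (amino acid isotypes, class II, opening anticodon base, mitochondrial strand) were chosen with earlier results of these data known. Gene positions are RefSeq's on GRCh38.p14, matched by name for 245 of 261 nuclear entries, and gene overlaps GENCODE's. A sequence of the isoleucine tRNAs is not reported here.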

Additional observations from a re-analysis of the deposited data

Results flagged for a closer look

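The 2 DUS3L clones responded differently, by a test of the difference of their fold changes, in 4 anticodon families. The log2 difference of clone #2 minus clone #1 was 1.63 for Asn-GTT, 1.58 for Ile-AAT, 1.54 for Lys-TTT and -1.23 for mt-Pro-TGG. Among isodecoders the named differences of clone #2 minus clone #1 were 6.11 for Thr-CGT-3-1, 5.77 for Asn-GTT-25-1, 5.57 for Ile-AAT-3-1, 4.23 for Leu-AAG-1-2, 2.96 for Lys-TTT-7-1 and 2.91 for Asn-GTT-6-1. Glu-TTC changed by 1.72 more on the log2 scale in DUS3L than in DUS2L, a call lost with centring (0.90, adjusted p = 0.156). What sets the clones apart was not tested.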

How the results depend on the processing

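Over 58 named tRNAs, 577 of 597 values under the alternatives kept their direction and their side of the threshold, 19 were no longer past it, 1 newly passed and 0 called values changed sign, while 14 uncalled values changed sign. Centring on the median nuclear entry left 1 family higher in both clones (Glu-TTC) and gave 7 families that differ between the clones. It gave 12 isodecoders higher in clone #1 and 5 lower in clone #2, the latter also with the spike-ins as reference. Summing the squared SEs left 1 family and 7 isodecoders that differ between the clones. An adjusted p under 0.01 left 7 isodecoders lower in clone #1 and 1 lower in both. A mean of at least 100 left 17 isodecoders higher and 1 lower in clone #2, 1 lower in both and 20 that differ between the clones. Of 132 list medians 6 moved by more than the median SE. With that mean the asparagine median in clone #2 was 1.53, and over families in place of isodecoders the medians were 1.27 for glycine in clone #2, -0.62 and -0.49 for threonine in clones #1 and #2, 0.052 for valine in clone #2 and -0.72 for anticodons opening with A in clone #1. The comparison of isodecoders between knockouts was chosen after seeing the data. No paired analysis was possible because the deposited columns carry no replicate numbers or values per library, and for the same reason no library was left out in turn. Low levels limit the rare isodecoders, such as Ile-AAT-2-1 with an SE of 1.12 against a median of 0.449 over isodecoders with a mean of at least 10.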

Other observations

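Of the isodecoders that fell in clone #1, 3 are neighbouring entries on chromosome 6, a pattern noticed after the values were seen and not tested. Ala-TGC-2-1, at chr6:28643445-28643516, went from 48.2 normalised reads in wild type to 14 in clone #1 and 24.0 in clone #2. Thr-CGT-3-1, at chr6:28648207-28648280, went from 1162 to 13.2 and 914, and Ala-AGC-4-1, at chr6:28658237-28658308, from 1068 to 355 and 999.6. The authors' deposited table gives clone #1 changes of -1.78, -6.46 and -1.59 for them. The entries on either side, Ala-AGC-3-1 (in an intron of ZBED9) and Ala-CGC-2-1, changed by -0.34 and -0.60 in clone #1 of the authors' deposited table and did not pass.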
